A study of Mus musculus with 6 samples.

Results

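Ion channels and solute carriers were read out with 110 microarray probes for 85 mouse genes. They were taken from the 4093 mRNA probes (3470 genes) named in the mRNA table that accompanies the study, by gene symbols that begin with Kcn, Cacn, Scn, Hcn, Ryr, Trpa, Trpc, Trpm, Trpv or Slc followed by the family's number. 43 probes for 29 genes belong to channels and their auxiliary subunits, and 65 probes for 54 genes belong to carriers. The remaining 2, Trpc4ap and Slc7a6os, match by name but encode neither a channel nor a carrier. No Ryr probe was among the named probes. The table was held in part, so channel and carrier genes beyond these were not analysed here.

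Ion channels let ions pass down their gradients and set the beat and the recovery of each heart cell: HCN channels pace it, sodium and calcium channels start and sustain the action potential, and potassium channels end it. Solute carriers move fuels, amino acids, metals and ions, and the SLC25 family does so across the inner mitochondrial membrane, where Slc25a4 and Slc25a5 exchange ADP for ATP. Blood cells carry their own set, among them Kcnn4, the calcium-activated potassium channel of red cells, and Slc14a1, their urea carrier.

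Each of the 6 arrays holds Cy3-labelled RNA of 1 tissue in 1 condition, from male C57BL/6J mice, for which the labels name no engineered allele. Mice with heart failure (HF) were given isoproterenol, a beta-adrenergic agonist, under the skin at 40 mg per kg per day for 1 week. Control mice were given saline for the same time. Heart, whole blood and plasma were taken from both, with the RNA of 5 mice mixed for an array, while the methods describe plasma pooled from more mice. Blood was collected by removing the eye, and plasma was centrifuged and passed through a filter. The model is thus catecholamine overload in whole animals, and a whole-heart extract mixes muscle with every other cell of the heart.

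A single array stood for each condition, so nothing could be tested. A level is a log2 spot intensity after quantile normalization over the 6 arrays, a difference is HF minus control on that scale, and its error, written ±, combines the scanner software's own error of the spots on the 2 arrays. That error leaves out mice, labelling and hybridization. A probe counts as detected where its spot was well above background. In these extracts fewer cells of a type and less RNA per cell cannot be told apart.

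The arrays were not of equal quality, and the blood arrays did not hold what their names alone would say. The control heart array detected 47.3% of all probes, the HF heart array 35.1%, and the 4 blood arrays at most 33.5%. Erythroid marker probes (among them hemoglobins, Alas2, Bpgm and Gata1) were detected for 7 of 8 in control plasma, as many as in control whole blood, and for 3 of 8 in HF plasma. Of 28 cardiomyocyte marker probes, the control heart array detected 27 and the HF heart array 28, while whole blood went from 8 in control to 27 in HF. Per the scanner headers, both hearts, HF whole blood and HF plasma were read in 1 scan and control whole blood and control plasma in another, so that in blood the scan and HF cannot be told apart.

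The members were named only where the heart gave a signal, since each of the 4093 named probes was detected on at least 1 heart array or had an outlier spot there. Control heart gave a signal for 108 of the members (98.2%, as of all named probes) and HF heart for 74 (67.3%, against 75.5%). In whole blood the numbers for control and HF were 73 (66.4%, against 64.2%) and 76 (69.1%, against 73.6%). In plasma they were 99 (90%, against 81.8%) and 79 (71.8%, against 64.9%). 41 members, 20 of channels and 20 of carriers, were detected on all 6 arrays, as were 1475 of the 4093 named probes.

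**Figure D1:**
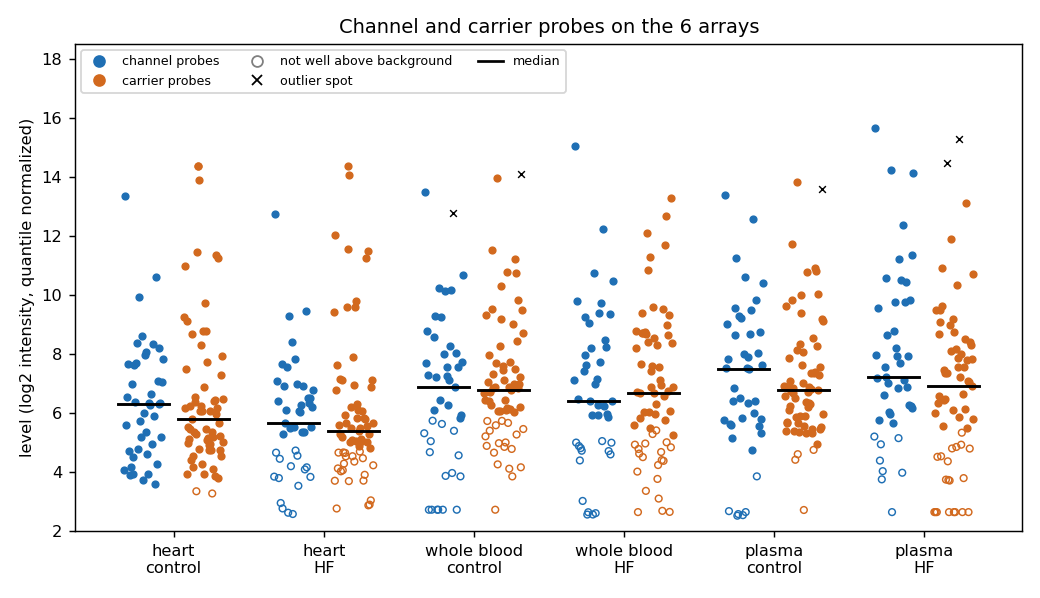
Level of each channel and carrier probe (y axis, log2 quantile-normalized intensity) on each of the 6 arrays (x axis), with 1 point per probe; open circles are not well above background, crosses are outlier spots and bars are medians over all probes of the class. The 2 probes that match by name alone are left out. The median of channel probes is 6.31 in control heart and 7.51 in control plasma, that of carrier probes 5.79 and 6.77, and open points are fewest in control heart.

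In the heart, channel and carrier probes were lower in HF more often than higher. Detected in both were 72 members, of which 2 (2.78%) were higher by 2-fold or more and 16 (22.2%) lower by as much, where the shares over all named mRNA probes were 11.6% higher and 17.1% lower. Their median difference was -0.46, against -0.16 over all named probes detected on both. Over all 20065 probes of the array detected on both hearts, 13.9% were higher and 12.9% lower, with a median of 0.02. Control heart detected 4020 of the 4093 named probes and HF heart 3092. The part of this naming in the lower values was not tested. No channel probe of 28 was 2-fold higher and 7 were 2-fold lower, and of 42 carrier probes 2 were higher and 9 lower. With each array scaled to its 75th percentile 4 channels were lower, and 4 carriers higher and 9 lower. After normexp background correction 2 channels were lower, and 1 carrier higher and 5 lower. A further 36 were detected in control heart only and 2 in HF heart only, and the dimmer HF array lost named probes in general (999 in control heart only, 70 in HF heart only). With that correction 7 of the 16 lower members stayed 2-fold lower. Hcn4, at -0.96, and Cacna1h, at -0.84, did not.

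Markers of other cells differed between the same 2 hearts. Of neutrophil markers detected on both, 5 of 5 were higher in HF by 2-fold or more, with a median difference of 4.09, and the median level of all 7 neutrophil probes went from 5.14 to 9.39. Erythroid markers were higher for 4 of 7, endothelial for 3 of 5, fibroblast for 2 of 4 and lymphocyte for 2 of 5, with none of these lower by 2-fold. Probes detected on 1 heart array alone are outside these counts. Among them, the erythroid Gata1 was at least 11.4-fold lower in HF and the neutrophil Il1b at least 1.61-fold lower. The neutrophil Ngp was at least 12.6-fold higher and the fibroblast Postn at least 10.5-fold higher. Platelet markers were lower for 2 of 2, and of 27 cardiomyocyte probes 6 were higher and 4 lower. The part of these cells in the members' values was not tested.

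Channels of the pacemaker and the ventricular action potential stood among the lower ones. Hcn4, the main pacemaker channel of the sinus node, had a level of 7.69 in control heart and 6.10 in HF heart, a difference of -1.59 ± 0.23. Its relative Hcn3 was at 6.39 and 5.68, a difference of -0.70 ± 0.26, short of 2-fold. Scn4b, an auxiliary subunit of the cardiac sodium channel, was at 8.20 and 6.33, a difference of -1.87 ± 0.22 and the lowest of the channel probes detected on both heart arrays. Scn2b, another such subunit, was at 7.08 and 6.51.

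Among the potassium channels, Kcnq1, the pore of the slow delayed rectifier, was at 8.34 in control heart and 6.91 in HF heart, a difference of -1.43 ± 0.21. Kcnd3, which carries the transient outward current, was at 9.93 and 9.28, less than 2-fold apart. The acetylcholine-gated Kcnj3 was at 7.97 and 7.85, within its error of 0.21. All 6 probes for pores of voltage-gated potassium channels detected on both heart arrays were lower in HF, 4 of them by less than 2-fold, and with each array scaled to its 75th percentile 5 of the 6 were. By any amount, 22 of the 28 channel probes and 57.1% of all named probes were lower there.

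The calcium channels did not move as a group. The T-type channel Cacna1h was at 7.66 in control heart and 6.42 in HF heart (-1.24 ± 0.22), while the other T-type channel, Cacna1g, was at 6.54 in control heart and 7.07 in HF heart, ± 0.21. Cacna1d, an L-type pore of the sinus node, was detected in control heart (5.60) and not well above background in HF heart, which makes it at least 1.85-fold lower. The auxiliary subunit Cacnb3 was measured with a pair of probes that disagreed in sign, as given with the other genes of several probes.

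Carriers gave both ends of the range in heart. Slc25a34, an SLC25 member of unsettled substrate, was at 14.37 in control heart and 11.56 in HF heart, a difference of -2.81 ± 0.20 and the lowest of all member probes detected on both. Slc25a25, which exchanges ATP-magnesium for phosphate, was at 11.44 and 9.59, a difference of -1.85 ± 0.20. The ADP/ATP carriers did not follow them: Slc25a4 was at 14.36 on both arrays, a difference of 0.00 ± 0.20, and Slc25a5 was at 13.88 and 14.08, which became 0.49 and 0.65 with scaling to the 75th percentile. Slc25a13, the aspartate/glutamate carrier, was detected at 6.38 in control heart and not in HF heart, at least 3.18-fold lower, whereas Slc25a22, a glutamate carrier, was detected at 5.67 in HF heart alone, at least 4.32-fold higher.

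Carriers of fuels were lower or little different. The lactate and pyruvate carrier Slc16a1 was at 9.12 in control heart and 7.64 in HF heart (-1.48 ± 0.21), and its relative Slc16a3 at 5.13 and 5.60. Slc27a5, a fatty acid and bile acid acyl-CoA synthetase known from liver, was at 8.33 and 6.22 (-2.11 ± 0.22), and Slc27a6, its counterpart of the heart, at 6.26 and 5.51. The creatine carrier Slc6a8 was at 7.93 and 7.13 and the taurine carrier Slc6a6 at 7.31 and 6.90, both under 2-fold.

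The 2 members at least 2-fold higher in HF heart were the potassium-chloride cotransporter Slc12a4, at 10.97 in control and 12.02 in HF (1.05 ± 0.20), and the Golgi UDP-galactose carrier Slc35a2, at 8.79 and 9.81 (1.02 ± 0.20). Both lie close to the 2-fold line. One of 4 Slc38a10 probes (NM_001164799) followed at 0.96 ± 0.24. The magnesium carrier Slc41a3 was detected at 5.07 in HF heart alone, at least 2.85-fold higher. The sodium-potassium-chloride cotransporter Slc12a2 was detected at 6.16 in control heart alone, at least 2.73-fold lower, and a Trpm3 probe (NM_001035239) at 6.34 in control alone, at least 3.09-fold lower. The bicarbonate carriers Slc4a4 (5.98 and 5.57) and Slc4a2 (11.36 and 11.25), the mitochondrial sodium-calcium exchanger Slc24a6, now named Slc8b1 (6.55 and 5.93), the glutamine carrier Slc1a5 (6.26 and 7.16) and the amino acid carrier heavy chain Slc3a2 (5.36 and 6.06) differed by less than 2-fold.

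**Figure D2:**
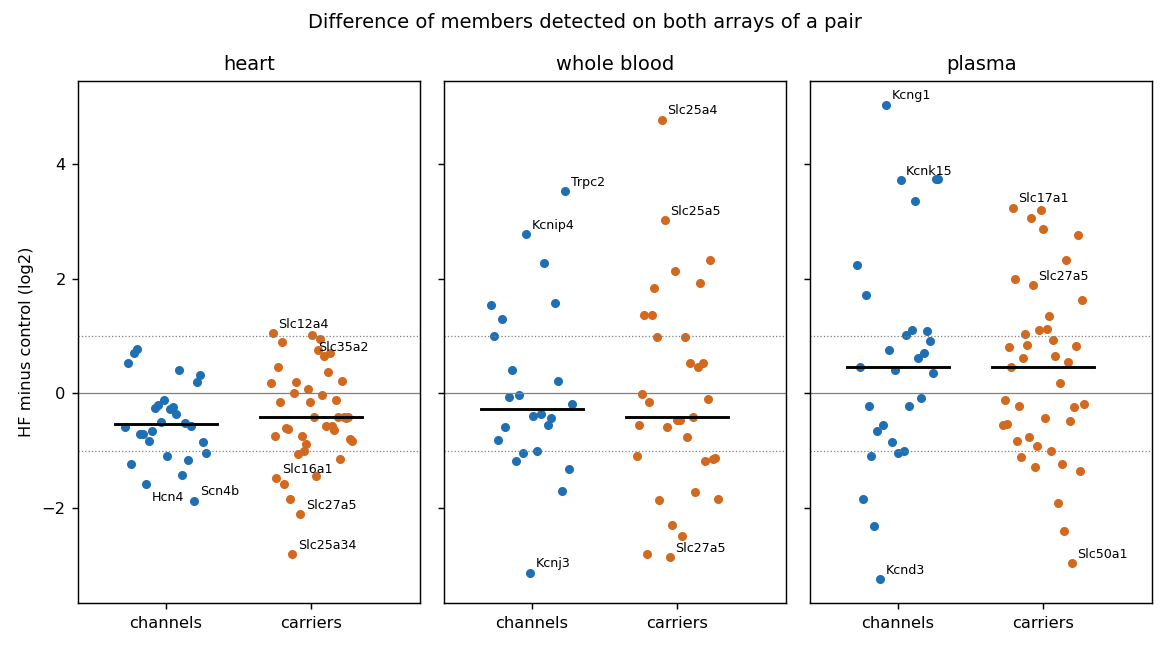
HF minus control (y axis, log2) for channel and carrier probes detected on both arrays of the heart, whole blood and plasma pair (1 point per probe, bars at the median, dotted lines at 2-fold). In heart the points run from -2.81 to 1.05 and their medians lie below 0, while in plasma both medians lie above 0, at 0.45 for channels and 0.46 for carriers.

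In whole blood as many channel probes were higher as lower. 59 members were detected on both of its arrays, with 14 (23.7%) higher in HF by 2-fold or more and 17 (28.8%) lower, near the shares of 20.1% and 27.6% over all named mRNA probes. Channels gave 6 higher and 6 lower of 24, carriers 8 higher and 11 lower of 33. The member median was -0.35 and that of all named probes -0.20. 14 more were detected in control whole blood only, 15 in HF whole blood only and 20 on neither array. Of the 4093 named probes these were 413, 746 and 666.

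Among members detected on both whole blood arrays, carriers that were bright in heart gave the largest positive difference and the third. Slc25a4, at 14.36 in both hearts, went from 6.08 to 10.86 in whole blood, a difference of 4.77 ± 0.31, and from 5.67 in control plasma to a spot not well above background in HF plasma. Slc25a5 was at 13.88 and 14.08 in heart, 8.29 and 11.30 in whole blood (3.02 ± 0.21) and 8.35 in control plasma. In HF plasma it was not well above background and at least 7.85-fold lower than in control plasma. Both carriers were thus highest in the 2 hearts, followed by HF whole blood, and lower still or undetected on the other 3 blood arrays.

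Slc25a34 and Slc12a4 were detected in HF whole blood and not in control whole blood. Slc25a34 reached 8.40 there, at least 6.18-fold higher than in control, and was not well above background on either plasma array. Slc12a4 reached 8.22, at least 5.45-fold higher. Slc25a34 was therefore lower in HF heart and higher in HF whole blood, each against its own control. From HF heart to HF whole blood the 4 carriers dropped by 3.50 (Slc25a4), 2.78 (Slc25a5), 3.16 (Slc25a34) and 3.80 (Slc12a4), and they were chosen after their values were seen.

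Many cardiomyocyte marker probes were, like Slc25a34 and Slc12a4, detected in HF whole blood and not in control whole blood. 20 marker probes, several of them for Tnnt2, were seen in both hearts but missed on the control whole blood array. Picked for that, they could not be called lower in HF whole blood. The HF whole blood array detected all 20, with the difference HF heart minus HF whole blood at a median of 3.45 (range 1.14 to 4.33). The troponin Tnni3 was at 14.90 in HF heart and 12.31 in HF whole blood, the atrial peptide Nppa at 16.65 and 15.52, and the fatty acid binding protein Fabp3 at 15.89 and 13.91, all 3 undetected in control whole blood. Across the whole list of 28 probes, levels ran from 2.73 to 14.48 in control whole blood (median 4.69) and from 4.33 to 15.52 in HF whole blood (median 9.60). Of the 7 probes of the list detected on both whole blood arrays, 2 were 2-fold higher in HF and 1 lower. A Mb probe (NM_001164047) was detected in control whole blood alone, at least 1.91-fold lower in HF. Myh6 and Corin were detected on all 4 blood arrays. Myh6 was at 14.36 or above there, brighter than in control heart (10.88) and HF heart (10.68). The part of heart RNA in the carrier differences was not tested.

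Members seen in the heart and missed in control whole blood were in part detected in HF whole blood. No such count was made over all named probes, so it cannot be read as particular to the members. Of the 4093 named probes, 746 were detected in HF whole blood only and 413 in control whole blood only. 16 members had signal in both hearts and none above background in control whole blood, and 8 of them appeared in HF whole blood, where the difference HF heart minus HF whole blood had a median of 0.96 (range -2.50 to 3.80). They included Slc12a4, Slc25a34, Slc35a2, Kcng2, Slc17a1, Slc29a1 (NM_001199113) and Slc38a10 (NM_001164802). The other 8, which included Scn4b, Cacnb1 (NM_001159319), Kcnn4 (NM_008433), Slc16a1, Slc3a2, Slc4a4 and Slc38a10 (NM_001164799), were not well above background in HF whole blood either.

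**Figure D3:**
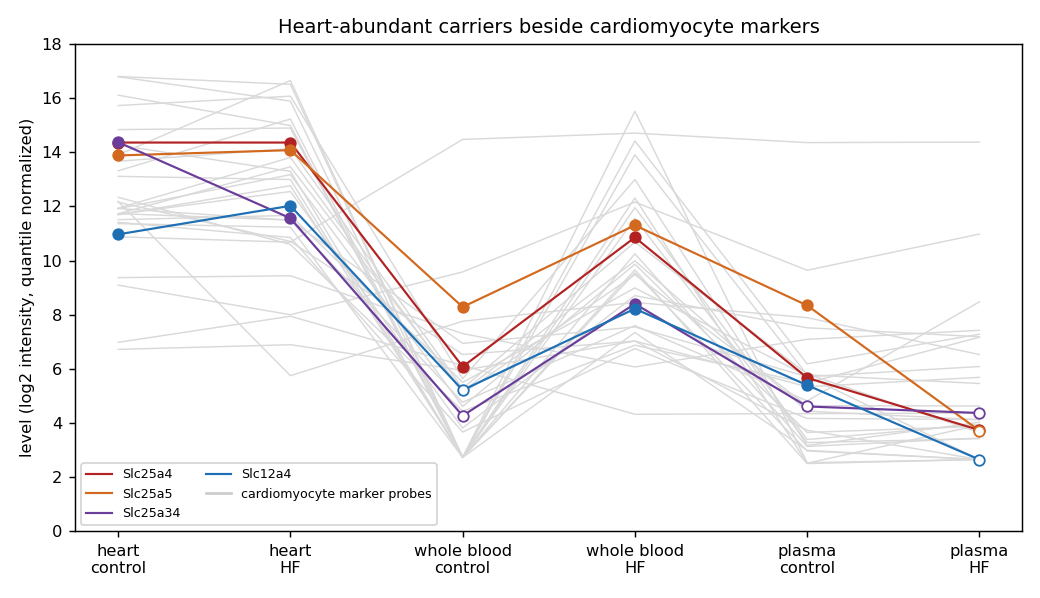
Level (y axis, log2 quantile-normalized intensity) of Slc25a4, Slc25a5, Slc25a34 and Slc12a4 on the 6 arrays (x axis), over grey lines for the 28 cardiomyocyte marker probes; open points are not well above background. The 4 carriers are highest in the hearts and higher in HF than in control whole blood, where Slc25a5 alone of them is above 8, at 8.29, as it is in control plasma, at 8.35.

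The 250 bases before the start of Slc25a4, Slc25a5 and Slc25a34 are shown from RefSeq (GRCm38.p6), 5′ to 3′ on the gene's strand. Capitals mark the letters of a GC box, GGGCGG, or of the estrogen-related receptor motif AAGGTCA, found on either strand.
Slc25a4, chr8:46211063-46211312, minus strand: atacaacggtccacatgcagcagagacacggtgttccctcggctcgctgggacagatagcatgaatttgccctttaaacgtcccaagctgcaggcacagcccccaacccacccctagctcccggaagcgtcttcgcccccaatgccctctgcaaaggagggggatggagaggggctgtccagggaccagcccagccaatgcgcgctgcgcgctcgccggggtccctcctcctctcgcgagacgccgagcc
Slc25a5, chrX:36795347-36795596, plus strand: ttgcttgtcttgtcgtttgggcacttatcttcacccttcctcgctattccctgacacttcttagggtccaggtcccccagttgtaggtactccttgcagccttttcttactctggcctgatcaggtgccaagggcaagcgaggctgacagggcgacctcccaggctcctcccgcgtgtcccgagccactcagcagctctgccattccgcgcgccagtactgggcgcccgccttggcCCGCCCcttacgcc
Slc25a34, chr4:141623835-141624084, minus strand: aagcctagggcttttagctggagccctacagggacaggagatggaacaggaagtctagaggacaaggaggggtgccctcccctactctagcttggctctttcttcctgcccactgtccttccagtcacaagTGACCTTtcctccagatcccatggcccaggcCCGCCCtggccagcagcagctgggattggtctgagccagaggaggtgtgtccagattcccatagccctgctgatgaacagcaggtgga
Slc25a5 and Slc25a34 each held 1 GC box, and Slc25a34 held 1 receptor motif. The letters of a GC box stood in 32.7% and those of the receptor motif in 4.08% of 32851 windows of this length. TATAAA (12.4% of windows) and CACGTG (6.02%) were in none of the 3. A match is a description of the letters, not a bound site.

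Other members were higher in HF whole blood too, and among those named next Slc4a2 was also bright in heart, at 11.25 in HF heart. Trpc2, a channel known from pheromone sensing, was at 5.83 in control and 9.36 in HF whole blood (3.53 ± 0.35). The potassium channel partner Kcnip4 was at 7.99 and 10.76 (2.77 ± 0.22). The glucose carrier family member Slc2a6 was undetected in control and at 8.56 in HF whole blood, at least 6.90-fold higher. The anion exchanger Slc4a2 was at 10.75 and 12.67 (1.93 ± 0.20) and Slc24a6 at 6.90 and 8.75 (1.85 ± 0.25).

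Of the 17 members lower in HF whole blood, 15 (88.2%, against 83.8% of the named probes lower there) were brighter in control whole blood than in control heart. Of the 14 higher members 9 were (64.3%, against 64% of the named probes higher there). Kcnj3 was at 10.13 in control and 6.997 in HF whole blood, and its difference of -3.13 ± 0.23 was the lowest there. Slc27a5 was at 10.30 and 7.43 (-2.86 ± 0.22), Slc27a6 at 9.19 and 6.90 (-2.29 ± 0.23), and an organic cation carrier, Slc22a18 (NM_001042760), at 11.51 and 8.70 (-2.81 ± 0.21). The other Slc22a18 probe (NM_008767) did not share this, at 9.53 and 9.38 (-0.15 ± 0.21). Cacna1d (7.71 in control) was not detected in HF whole blood, which puts it at least 5.71-fold lower. Slc12a2 and Slc16a3 were detected in control whole blood alone and were at least 2.39-fold and 2.33-fold lower. The differences were -1.70 ± 0.32 for Scn2b, -1.19 ± 0.21 for Kcnd3, -1.13 ± 0.21 for Slc6a8 and -1.09 ± 0.35 for the iron carrier Slc11a2.

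Slc14a1 and the bright Kcnn4 probe, the members introduced above with red cells, were little different in whole blood. Other members of blood cells, among them Slc11a2, Slc4a2 and Slc2a6, differed by 2-fold or more there, as given above. Slc14a1 was at 9.32 in control and 8.78 in HF whole blood (-0.54 ± 0.21). The bright Kcnn4 probe (NM_001163510) was at 10.16 and 9.73 (-0.43 ± 0.21). The erythroid marker list of 8 probes had 4 of 7 lower by 2-fold or more in HF whole blood, with a median of -1.98, and lymphocyte markers had 4 of 5 lower. Neutrophil markers had 2 of 2 higher and 4 more detected in HF whole blood only. The part of these cell markers in the members' values was not tested.

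Slc6a6 and Kcnq1 were among the bright blood members, but their outlier spots bar a comparison. With HF, Slc6a6 was at 13.29 in whole blood and 6.91 in plasma, and its spots on both control blood arrays were outliers. Kcnq1 had an outlier spot in control whole blood and was at 12.23 with HF, and in plasma it was at 12.59 and 12.37 (-0.22 ± 0.20).

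In plasma the members were higher in HF more often than lower, in the proportion of all named probes. Both plasma arrays detected 71 of them, with 24 (33.8%, against 32.8% of all named probes) higher by 2-fold or more and 14 (19.7%, against 23.7%) lower, with a median of 0.46 against 0.29. Channels gave 10 higher and 6 lower of 29 (7 and 8 with scaling to the 75th percentile), and carriers 13 higher and 8 lower of 41. A further 26 were detected in control plasma only and 7 in HF plasma only, against 1075 and 384 of the 4093 named probes. This count of higher members rests on the detection filter: with no filter, 32 were higher and 36 lower and the median was -0.22.

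Potassium channels held the largest rise and the largest fall among members detected on both plasma arrays. Kcng1, a silent subunit that modifies other voltage-gated channels, was at 9.21 in control and 14.24 in HF plasma (5.03 ± 0.20), and at 9.27 and 8.22 in whole blood. The two-pore channel Kcnk15 was at 7.51 and 11.23 (3.72 ± 0.21). Kcnd3 went the other way, at 9.29 in control plasma and 6.05 in HF plasma (-3.24 ± 0.28). Kcnj3 was at 10.61 and 9.77 and Hcn4 at 11.24 and 10.58, both under 2-fold, while Hcn3 was at 9.55 and 7.24 (-2.32 ± 0.17).

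Of the 7 members detected in HF plasma and not in control plasma, 6 were not well above background in either whole blood array. Among these were Kcnj6 (NM_001025584), Kcnc1, Kcnip3, Cacna2d2 (NM_001174047) and Slc25a13. Kcnj6, an inward rectifier best known from neurons, was at 8.20 in HF plasma, at least 11.8-fold higher than in control plasma, and Kcnc1, a fast delayed rectifier, at 7.01, at least 5.20-fold higher. Kcnip3 and Cacna2d2 were at 5.65 and 5.76, at least 2.03-fold and 2.18-fold higher.

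**Figure D4:**
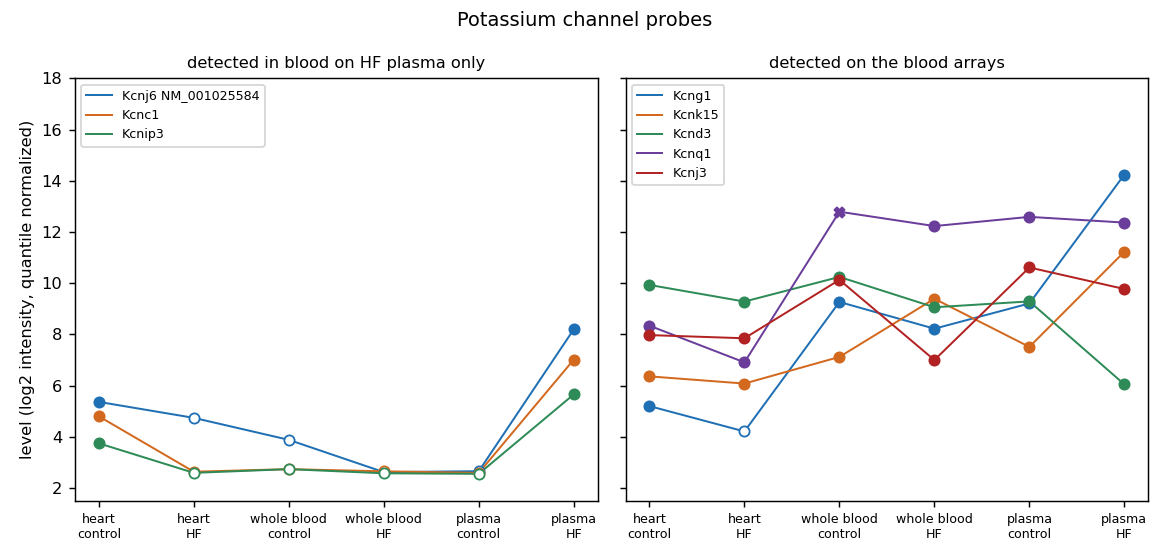
Level (y axis, log2 quantile-normalized intensity) of potassium channel probes on the 6 arrays (x axis); open points are not well above background and the cross is an outlier spot. The 3 probes on the left are detected in blood on the HF plasma array alone, and on the right Kcng1 reaches 14.24 in HF plasma while Kcnd3 drops to 6.05.

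Calcium and TRP channels were mixed in plasma. All 5 TRP probes, 4 of them for Trpm3 and 1 for Trpc2, were higher in HF plasma, as were 56.7% of all named probes, and 3 were so by 2-fold or more (2 with scaling to the 75th percentile), with Trpm3 at 3.74 on each of 2 probes (7.63 and 11.37 for NM_001035244, 10.41 and 14.15 for NM_001035245). Cacna1h was at 7.85 in control and 9.57 in HF plasma (1.72 ± 0.21). Cacna1g was at 9.02 and 7.18, a difference of -1.84 ± 0.23, so the pair of T-type channels was opposite in plasma as in heart, with signs exchanged. Cacna1d was at 7.52 and 7.97.

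Among carriers in plasma, Slc17a1, a phosphate and urate carrier, was 3.24 higher in HF (6.24 and 9.48, ± 0.24), Slc2a6 3.19 higher (5.56 and 8.75, ± 0.29), and Slc1a5 was at 7.08 and 9.07 (± 0.22). Slc4a2 was 2.32 higher, at 10.80 and 13.12. The sugar carrier Slc50a1 was at 10.05 in control and 7.08 in HF plasma (-2.97 ± 0.23), and the organic cation exporter Slc47a2 at 10.90 and 8.50 (-2.40 ± 0.21). A neutral amino acid carrier, Slc43a2 (NM_001199283), was at 8.55 and 6.64, Slc6a8 at 9.19 and 7.84, and Slc27a6 at 9.39 and 8.10, all at least 2-fold lower. Slc14a1 (9.62 and 9.50) was little different, and the bright Kcnn4 probe was at 9.48 and 10.50 (1.02 ± 0.20).

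No count at the lowest level was made over all named probes, so the next numbers cannot be read as particular to the members. 10 members lay at the lowest level of the HF plasma array, which 25588 of its 61194 spots share, and 9 of the 10 were detected in control plasma. They included Slc11a2 (6.92 in control), the zinc exporter Slc30a1 (5.92) and the vitamin carrier Slc5a6 (6.77), which were at least 2.92-fold, 1.46-fold and 2.63-fold lower in HF. Erythroid markers were lost with them: 3 of the 8 probes were detected on both plasma arrays, 3 of these were lower in HF, with a median of -8.31, and 4 were detected in control plasma only. Their part in the members' values was not tested.

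The 2 control blood arrays differed by less than 2-fold for most of these genes. Of 71 members detected in both control whole blood and control plasma, 67 (94.4%) were within 2-fold, as were 94.5% of the named probes. All 43 carrier probes were, and 23 of 26 channel probes (88.5%). Hcn4 had the largest difference, 4.02, at 7.22 in control whole blood and 11.24 in control plasma. No named probe detected on both differed by more. Between the 2 HF blood arrays, 23 of 58 (39.7%) were within 2-fold, against 32.4% of the named probes. Of 53 members detected on both control blood arrays and both hearts, 35 (66%) were brighter on both blood arrays than on both heart arrays, against 60.2% of the named probes. The difference control heart minus control whole blood had a median of -1.62 over the 72 members detected on both and of -1.36 over the named probes.

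Of the 41 members detected on all 6 arrays, 13 (31.7%) were lower in HF in all 3 tissues by any amount, against 18.4% of the named probes. With scaling to the 75th percentile 11 of the 13 remained so, and Kcnj3 in heart turned to 0.09. The 13 were Kcnj3, Kcnd3, Hcn3, Scn2b, Kcne3, Kcnk6, Slc38a1, Slc6a8, Slc27a6, Slc14a1, a Cacnb3 probe (NM_007581) and both Slc22a18 probes, and each was 2-fold lower in at most 2 of the tissues. Some of the differences lay within their error. Kcne3 was at -0.25 ± 0.27 in heart and -0.02 ± 0.31 in whole blood, and Hcn3 at -0.07 ± 0.21 in whole blood. The differences of Slc38a1, a glutamine carrier, were -1.44 in heart, -2.48 in whole blood and -0.43 in plasma.

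16 genes had several probes, and these did not always give 1 direction. In heart, 8 genes had 2 or more probes detected on both arrays and 4 of them held both signs. In whole blood this was so for 3 of 7 and in plasma for 3 of 9. Cacnb3, a calcium channel subunit, was at 0.78 (NM_001044741) and -0.70 (NM_007581) in heart and at 1.30 and -0.59 in whole blood. Cacnb1 was at 0.70 (NM_001159319) in heart, while its other probe was detected in control heart alone. Slc29a1, the nucleoside carrier that clears adenosine, was 2.13 higher in HF whole blood by 1 probe (NM_001199115), at least 3.51-fold higher by another (NM_001199113) and at least 4.94-fold lower by the third (NM_001199114). The probes carry transcript variant names, and the part of splicing, cross-hybridization and noise in such splits was not tested.

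**Figure D5:**
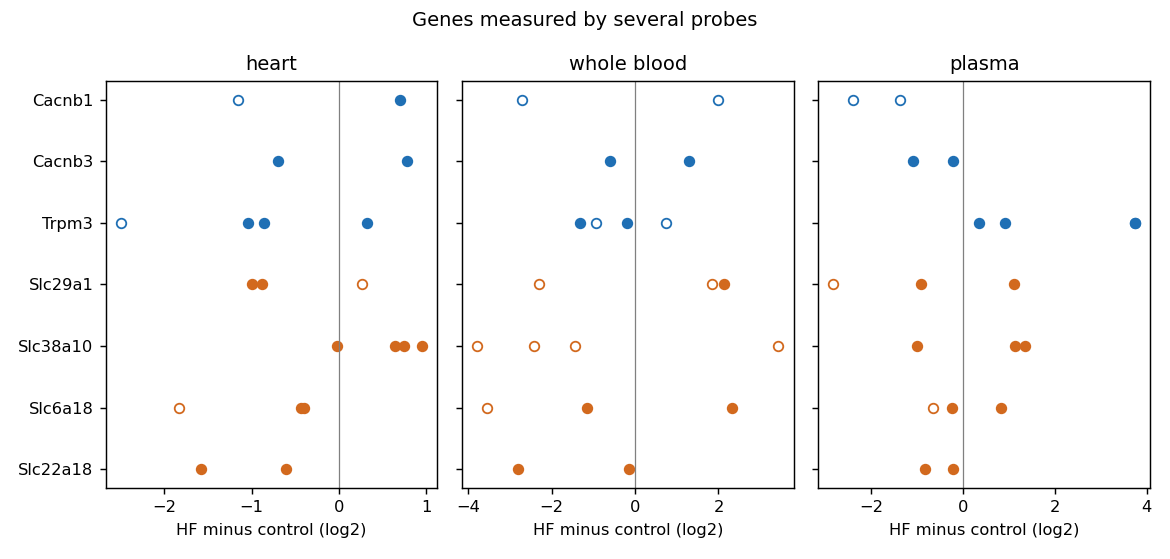
HF minus control (x axis, log2) for each probe of 7 genes with several probes (y axis), in heart, whole blood and plasma; filled points were detected on both arrays, open points were not, and probes with an outlier spot are left out. Cacnb3 in heart and whole blood and Slc29a1 in whole blood have probes on both sides of 0.

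Other transport and excitation genes gave the setting for the members. Of 32 probes for 25 pumps, junction, calcium signalling, partner and receptor genes, 25 were detected on both heart arrays, 2 of them higher by 2-fold or more and 4 lower. In whole blood 3 were higher and 5 lower of 16, and in plasma 3 higher and 5 lower of 13. A probe for the calcium pump Atp2a2 (NM_009722) was at 16.57 and 16.91 in heart and 13.92 in HF whole blood. It was not well above background on the other 3 blood arrays, the pattern of Slc25a34 in blood. In heart its difference was 0.34, where that of Slc25a34 was -2.81. The other Atp2a2 probe (NM_001110140) did not share the pattern. It was detected on every array, at 6.70 and 10.34 in whole blood and 7.23 and 5.41 in plasma. Gja5, a connexin of the atria and the conduction system, was at 7.22 and 9.80 in heart, where the connexin Gja1 had a difference of -2.14.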

How the data were processed

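Labelled cRNA was hybridized to 6 one-colour Agilent arrays, and the authors deposited the scanner output of Agilent Feature Extraction 11.0.1.1, whose processed signal is an intensity after background subtraction and is not yet normalized between arrays. Per the methods, the study used quantile normalization and detection flags. Here log2 intensity was averaged over the spots of a probe without those flagged as outliers and quantile normalized over 59729 probes (Python 3.11.15, numpy 2.4.6, pandas 2.3.3). Probe, transcript and symbol came from the study's mRNA table, of which no value was used. All 85 symbols were found in RefSeq, 84 by symbol and 1 by accession. Calls at 2-fold were limited to probes with a signal well above background in control and HF. Where 1 array fell below background, a bound was computed against the higher of that array's lowest detected level and the probe's own level there. Named members were a set of heart and blood genes plus, in each tissue, the 3 highest and 3 lowest differences and the 2 largest bounds each way, and further members of groups described were named after their values were seen. Members, gene lists and thresholds were chosen with earlier results of these data known. Alternatives were another scaling, normexp background correction with an offset of 50 (limma 3.58.1, R 4.3.3), other detection filters, thresholds and 1 probe per gene. The procedure was tested on simulated data. The number of arrays limits the precision, and no replicate error exists. Results for some members and marker genes are not reported here.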

Additional observations from a re-analysis of the deposited data

Results flagged for a closer look

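6 genes had differences of at least 2-fold in opposite directions in 2 tissues, on probes detected on both arrays of each pair. Between heart and plasma these were 4 of 52 members (7.69%, against 11.1% of the named probes), and between whole blood and plasma 4 of 49 (8.16%, against 11.3%). With 1 array per condition the differences between tissues were not tested, and in blood the scan cannot be told apart from HF. In HF heart and HF plasma, Cacna1h was at -1.24 and 1.72, the sulfate carrier Slc26a2 at -1.05 and 3.06, Slc27a5 at -2.11 and 1.89, and Trpm3 (NM_001035245) at -1.04 and 3.74. In HF whole blood and HF plasma, Kcng1 was at -1.04 and 5.03, Slc27a5 at -2.86 and 1.89, the cystine carrier subunit Slc7a9 at -1.84 and 1.62, and the other Trpm3 probe (NM_001035244) at -1.32 and 3.74. All of these were higher in HF plasma. None of 48 members had such opposite differences between heart and whole blood, against 3.96% of the named probes.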

How the results depend on the processing

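No paired analysis was possible because each condition holds 1 array, and for the same reason no array could be left out. The median difference in plasma, 0.46, turned to -0.19 with the weaker detection flag and to -0.22 with no detection filter, and was 0.17 over members detected on all 6 arrays. The heart median, -0.46, was -0.20 after normexp correction, and the whole blood median, -0.35, ran from -0.40 to -0.17 over the alternatives. Higher and lower members in heart, 2 and 16, were 4 and 13 after scaling to the 75th percentile, 3 and 16 with quantile normalization within heart and blood, 1 and 7 after normexp, 4 and 23 with the weaker flag, 4 and 28 with no filter, 0 and 10 over members detected on all arrays, 9 and 31 at 1.5-fold, and 0 and 2 at 4-fold. In whole blood, 14 and 17 were 12 and 10 after normexp, 25 and 29 with the weaker flag, 29 and 35 with no filter, 9 and 12 over all arrays, and 7 and 5 at 4-fold. In plasma, 24 and 14 were 19 and 7 after normexp, 27 and 26 with the weaker flag, 32 and 36 with no filter, 14 and 9 over all arrays, and 13 and 4 at 4-fold. Scaling to the 75th percentile moved the heart median of named probes from -0.16 to -0.01, that of whole blood from -0.20 to -0.41 and that of plasma from 0.29 to 0.14. The share of changed members that were higher in heart was 11.1%, and 23.5% under that scaling. Under the 3 scalings and background corrections no called member changed sign. Levels near background, where many members lie in HF heart and HF plasma, limit these counts.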
